A study of Mus musculus with 11 samples.

Results

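Transcripts of 10 early response genes were described: the AP-1 subunits Fos, Fosb, Fosl1, Fosl2, Jun, Junb and Jund, the related factor Atf3, and the early genes Egr1 and Ier2. They were chosen by name, as AP-1 subunits and early genes that tissue dissociation can induce, and all 10 stood in the deposited table of 24421 genes. All 10 also passed the filter on low counts, which left 13916 genes. The study measured poly(A) RNA by bulk sequencing in epithelial cells of fetal mouse lung at E17.5, in 6 Control and 5 PRDM3/16KO libraries. In the PRDM3/16KO mice, floxed alleles of Prdm16 and Prdm3 (listed here as Mecom) were recombined by a Cre carried at Shh, which is active in lung epithelium. The label Control gives no alleles. The breeding described in the labels crossed Prdm3 fl/fl, Prdm16 fl/wt males that carried ShhCre with females floxed on every copy of both genes, so Control mice may carry floxed alleles, and the labels do not say which. All groups share the same preparation: lungs were minced, held at 37C in Liberase TM and DNAse I, dissociated mechanically, freed of red cells and passed over EpCAM microbeads. No undissociated tissue was analysed here, so RNA made in the lung and RNA made during the preparation cannot be told apart. Nothing in the labels ties a library to its own animal, and the p-values therefore rest on the spread among these 11 libraries.

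AP-1 is a family of dimeric transcription factors. Fos proteins dimerise with Jun proteins, Jun proteins can also pair among themselves, and the dimers bind the sequence TGACTCA or the closely related cAMP response element. Fos, Fosb, Egr1 and Ier2 are classical immediate early genes, transcribed within minutes of growth factor or stress signals through the serum response factor and CREB without new protein synthesis, and their mRNAs are short-lived. Fosl1 and Fosl2 encode FRA1 and FRA2, which follow more slowly and lack the strong activation domain of FOS. JUND is made more constantly than JUN and JUNB. ATF3, a stress-induced partner of JUN, often represses, EGR1 is a zinc-finger factor, and IER2 is a small nuclear protein. Because enzymatic digestion of tissue is itself a stress, these genes are widely known as markers of dissociation.

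Promoter sequences are shown for Fos, Fosb, Junb and Jun, because CREB and AP-1 act through short elements close to these start sites and the 4 genes did not move in 1 direction. The 250 bases before the start came from RefSeq (GRCm38.p6, the same sequence as mm10), where 7 of the 10 genes had an entry: Fos, Fosb, Fosl2, Jun, Junb, Jund and Atf3. Each is printed 5′ to 3′ on the gene's strand. Capitals mark TGACG, the core of the cAMP response element, and in Jun the AP-1-like element TGACATCA. The windows are chr12:85473640-85473889 for Fos (plus strand), chr7:19310046-19310295 for Fosb (minus), chr8:84978749-84978998 for Junb (minus) and chr4:95052223-95052472 for Jun (minus).
Fos: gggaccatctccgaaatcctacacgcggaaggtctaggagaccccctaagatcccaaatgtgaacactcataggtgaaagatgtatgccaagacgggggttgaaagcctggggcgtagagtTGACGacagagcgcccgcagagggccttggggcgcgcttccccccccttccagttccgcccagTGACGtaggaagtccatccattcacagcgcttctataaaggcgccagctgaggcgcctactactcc
Fosb: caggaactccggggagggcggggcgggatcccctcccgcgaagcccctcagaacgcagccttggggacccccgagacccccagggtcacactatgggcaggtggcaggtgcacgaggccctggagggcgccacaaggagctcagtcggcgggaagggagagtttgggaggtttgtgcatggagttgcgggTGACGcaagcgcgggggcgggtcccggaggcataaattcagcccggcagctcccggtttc
Junb: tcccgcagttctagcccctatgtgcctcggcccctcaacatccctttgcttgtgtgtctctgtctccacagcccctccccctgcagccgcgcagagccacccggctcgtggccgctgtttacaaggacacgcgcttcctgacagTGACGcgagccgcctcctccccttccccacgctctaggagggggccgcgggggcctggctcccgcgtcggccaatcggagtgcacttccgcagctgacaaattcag
Jun: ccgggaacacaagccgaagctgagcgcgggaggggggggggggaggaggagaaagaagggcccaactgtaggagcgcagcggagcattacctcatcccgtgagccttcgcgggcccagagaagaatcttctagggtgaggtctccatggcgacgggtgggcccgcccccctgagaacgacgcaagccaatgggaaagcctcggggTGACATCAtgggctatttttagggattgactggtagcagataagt

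The core TGACG, searched on both strands, stood in 4 of the 7 windows (Fos, Fosb, Junb and Atf3) and in 17.8% of all 32851 windows of the same length. In Fos it began 129 and 66 bases before the start, the second as part of TGACGT. That longer form was found in 6.47% of all windows, including the one of Atf3. In Fosb the core began 60 bases and in Junb 106 bases before the start. Jun held TGACATCA 45 bases before the start, an element found in 2.93% of windows. The TATA element TATAAA was present in Fos alone, 33 bases before the start (12.4% of windows), and CCAAT in Jun and Junb (33.9%). RefSeq and GENCODE differ in the start of some genes: the window of Fosl2 lies within a GENCODE exon, that of Atf3 inside the gene as GENCODE spans it, and that of Jund upstream of the GENCODE start without reaching it. The 8-base TGACGTCA, the AP-1 site TGACTCA and the CArG box (bound by serum response factor) matched none of the 7 windows, and matched 1.55%, 4.46% and 1.47% of all windows. Bases farther upstream were not searched, so the absence of a match says nothing of elements there. The motifs were chosen with these sequences in view, TGACG lies inside TGACGT and TGACGTCA, and a match is a description of letters only.

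Early gene mRNA was among the most abundant in these cells. Values are CPM, counts scaled to the depth of each library, with depths adjusted by the trimmed mean of M values (TMM). Summed over the 10 genes, they made up 1.80 ± 0.120% of TMM-scaled counts in Control (SD, n = 6) and 1.81 ± 0.117% in the knockout (SD, n = 5). Single libraries ran from 1.59% to 1.92% in Control and from 1.69% to 1.98% in the knockout. These are not shares of raw counts, as TMM factors ran from 0.930 to 1.031 in Control and from 1.029 to 1.061 in the knockout. Jun was the most abundant gene of all over the 11 libraries by mean CPM, ranking 2 in Control and 1 in the knockout. Egr1 ranked 12 and 2, Atf3 24 and 19, and Fos 45 and 15. Fosl1 stood apart at the bottom, at rank 11651 in Control and 10132 in the knockout.

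Levels of different genes were compared per kilobase of annotated exon (GENCODE M21), over 13378 tested genes with a length. Jun led the 10 genes in Control, at 1581 ± 142 CPM per kilobase, without overlap with the next, and held rank 1 among all genes with a length. Jund (1076 ± 156), Ier2 (1010.5 ± 75.6), Atf3 (1001 ± 206), Junb (783 ± 77.4), Fos (681 ± 37.4) and Egr1 (602 ± 51.6) followed in CPM per kilobase, and each overlapped its neighbour in this order. Fosb (87.8 ± 8.70) and Fosl2 (82.3 ± 12.6) lay lower and overlapped each other, and Fosl1 was last at 2.19 ± 0.71 CPM per kilobase (SD, n = 6 throughout). In the knockout Jun led the 10 genes at 1326 ± 99.8 CPM per kilobase, at rank 4 among all genes with a length, and Fosb (173 ± 4.22) and Fosl2 (49.6 ± 2.996) no longer overlapped (SD, n = 5). Jun, Jund and Ier2 each have a single exon in this annotation.

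The comparison between the genotypes asked how loss of the 2 PRDM factors changes epithelial gene expression. Fos, Fosb, Fosl1 and Egr1 were higher in the knockout and Fosl2, Jun, Junb and Jund lower, while Atf3 and Ier2 did not pass (edgeR, quasi-likelihood test, threshold 0.05 on the adjusted p). That is 4 of 10 in each direction, where 21.1% of all genes tested were called higher, 21.8% lower and 42.9% in all. The CPM ranges of the 2 groups did not overlap for 5 of the 10, namely the 4 higher genes and Fosl2. Over all genes tested the ranges did not overlap for 28.5%, with 14.2% higher and 14.2% lower in the knockout. The median log2 fold change, knockout over Control, was -0.09 for the 10 genes and 0.0023 for all genes tested. The genes did not move as a block: the Fos genes split, the Jun genes fell, and Egr1 rose.

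**Figure D1:**
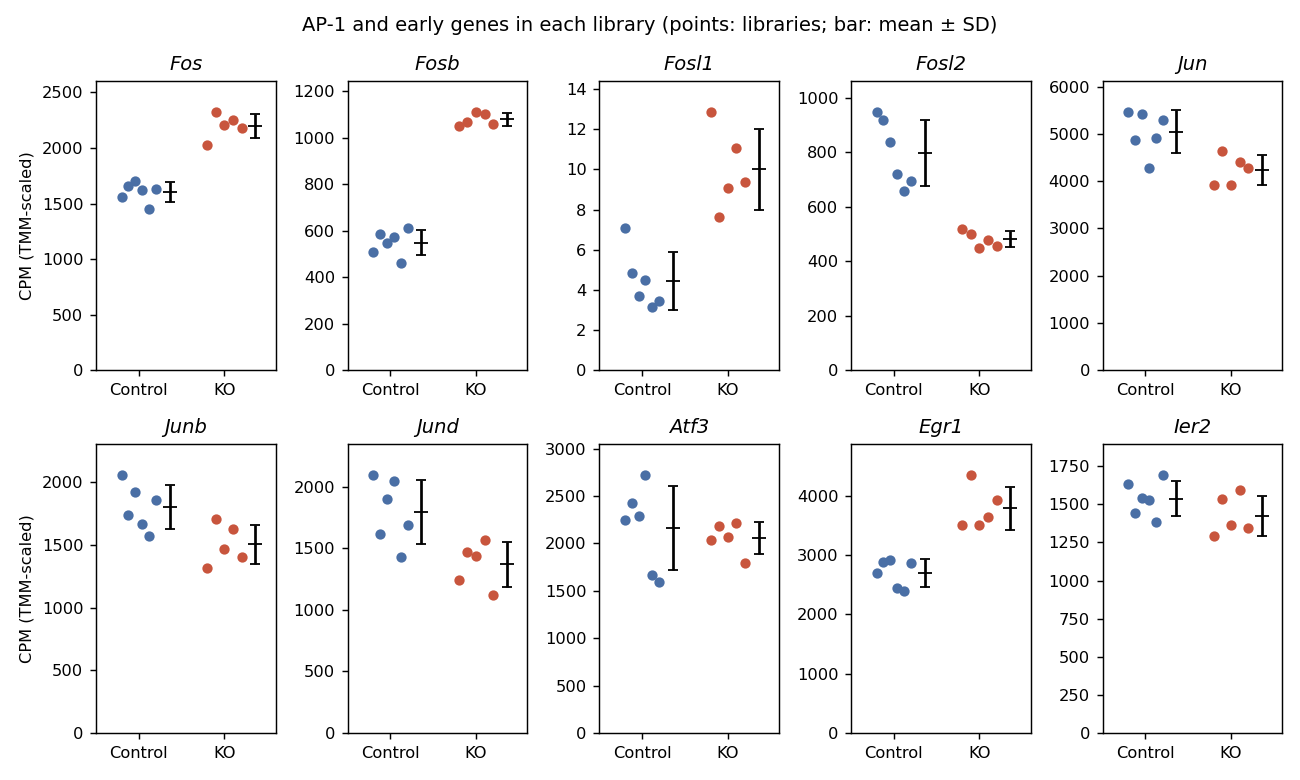
CPM of the 10 genes in each of 6 Control and 5 knockout (KO) libraries, with mean ± SD beside the points, each axis starting at 0. Fos, Fosb, Fosl1 and Egr1 lie higher and Fosl2 lower in every knockout library than in any Control library, and the other 5 genes overlap.

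Fos, the founding member of the family (chromosome 12, 85473890 to 85477273, mm10, plus strand), was higher in the knockout. Control libraries 1 to 6 held 1559.6, 1654, 1701, 1621, 1449 and 1628 CPM, and knockout libraries 1 to 5 held 2027, 2324, 2209, 2252 and 2182 CPM. Every knockout library lay above every Control library, and Control library 5 was the lowest of all. The mean went from 1602 ± 88.0 to 2199 ± 110 CPM (SD, n = 6 and 5), 1.37-fold, or 0.46 on the log2 scale (SE 0.069; adjusted p = 6.62e-05 by edgeR).

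Fosb, which encodes a FOS paralog with its own strong activation domain (chromosome 7, 19302696 to 19310051, minus strand), rose more. Control libraries held 510.2, 585, 546, 575, 462 and 610.2 CPM and knockout libraries 1052, 1068, 1109.9, 1102 and 1058 CPM. The groups were far apart, and the 5 knockout libraries spanned a narrow range. The mean went from 548 ± 54.3 to 1078 ± 26.4 CPM (SD, n = 6 and 5), 1.97-fold, or 0.98 on the log2 scale (SE 0.075; adjusted p = 6.66e-08 by edgeR).

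Fosl1, the FRA1 gene (chromosome 19, 5447547 to 5455946, plus strand), was scarce and also higher in the knockout. It had 7.10, 4.84, 3.68, 4.51, 3.17 and 3.46 CPM in Control and 12.9, 7.62, 9.09, 11.1 and 9.38 CPM in the knockout. The groups did not overlap, but Control library 1 came close to knockout library 2. These values rest on 175 counts over the Control and 388 over the knockout libraries. The log2 fold change was 1.18 (SE 0.20; adjusted p = 0.000188 by edgeR), or 2.27-fold, from 4.46 ± 1.44 to 10.0 ± 2.01 CPM (SD, n = 6 and 5). Of the 2033 exon bases of Fosl1, 1163 overlap exons of Ccdc85b on the opposite strand. Whether counting used strand is not given in the sources used here, so reads from the overlap cannot be assigned. Ccdc85b itself had 37.2 ± 3.69 CPM in Control and 30.7 ± 5.55 CPM in the knockout (SD, n = 6 and 5), which did not pass (log2 -0.28, adjusted p = 0.0511 by edgeR), and knockout library 4 was the highest of the knockout libraries, at 40.5 CPM.

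Fosl2, the FRA2 gene (chromosome 5, 32135801 to 32157842, plus strand), went the other way. Control libraries held 948, 920.0, 837, 721, 659 and 695 CPM and knockout libraries 518, 499.6, 448, 479 and 457 CPM. All knockout libraries were below all Control libraries, and Control libraries 4, 5 and 6 were lower than Control libraries 1, 2 and 3. The mean fell from 797 ± 122 to 480.5 ± 29.0 CPM (SD, n = 6 and 5), or -0.73 on the log2 scale (SE 0.10; adjusted p = 2.57e-05 by edgeR). Control was 1.66-fold higher.

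Within the Fos family the mixture of transcripts therefore differed between the genotypes. This was tested on ratios of raw counts within a library, which do not depend on scaling, for 10 pairs of genes. The test was an exact permutation over the 462 ways to assign 6 and 5 libraries, two-sided, whose smallest possible p is 0.00216. Fosb against Fosl2 ran from 0.538 to 0.878 in Control and from 2.03 to 2.47 in the knockout, in counts not corrected for exon length. The log2 difference was 1.70 (exact permutation p = 0.00216, adjusted over the 10 pairs p = 0.00541). Per kilobase of exon, Fosb was the higher of the 2 in 4 of 6 Control libraries and in 5 of 5 knockout libraries. Fos against Fosb fell from a geometric mean of 2.93 to 2.04 (log2 difference -0.52; exact permutation p = 0.00216, adjusted p = 0.00541), without overlap. Fos rose against Fosl2 from 2.03 to 4.58 and Fosl1 against Fosl2 from 0.00544 to 0.0205, with the same p-values in the exact permutation test. Every knockout library had more Fos, Fosb and Fosl1 CPM and less Fosl2 CPM than any Control library. Ratios to Fosl2 therefore had to separate the groups, and their p-values add nothing to the calls of the single genes. Fos against Fosl1 also differed (log2 difference -0.74; exact permutation p = 0.0152, adjusted p = 0.0303), but with overlap. That call was lost when any single library other than Control 1 or knockout 2 was left out. Over the exclusions run, the log2 difference ran from -0.89 to -0.58 and the adjusted p of the exact permutation test from 0.0159 to 0.127. Fosb against Fosl1 had a log2 difference of -0.22 (exact permutation p = 0.387, adjusted p = 0.484).

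**Figure D2:**
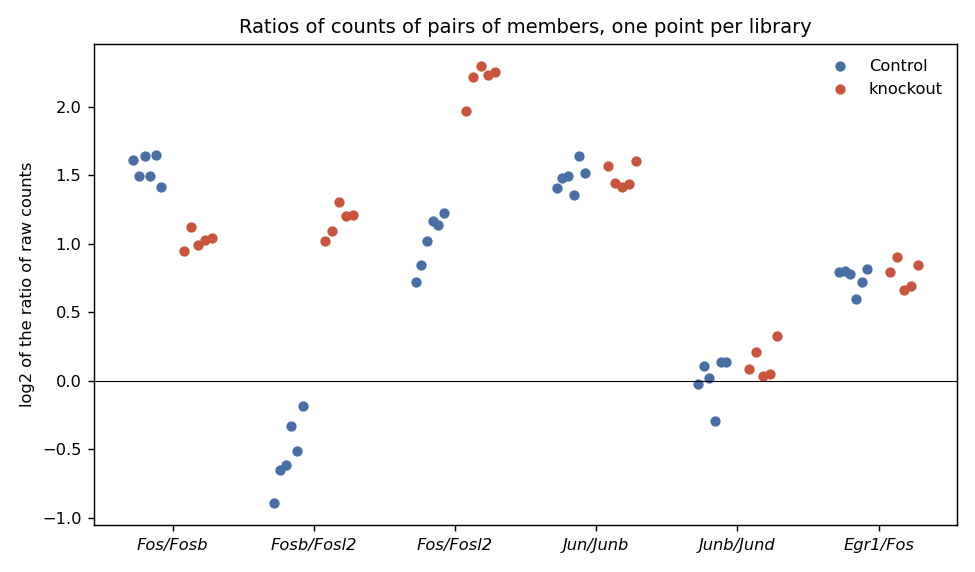
Log2 ratios of raw counts for 6 of the 10 pairs, 1 point per library, blue for Control and red for knockout. Fos/Fosb, Fosb/Fosl2 and Fos/Fosl2 separate the groups, while Jun/Junb, Junb/Jund and Egr1/Fos overlap.

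The 3 Jun genes were each lower in the knockout. Jun (chromosome 4, 95049034 to 95052222, minus strand) had 5462, 4873, 5427, 4271, 4912 and 5298 CPM in Control and 3913, 4643, 3913, 4404 and 4278 CPM in the knockout. Control library 4 and knockout libraries 2, 4 and 5 stood at like levels, so the groups overlapped. The mean fell from 5041 ± 454 to 4230.1 ± 318 CPM (SD, n = 6 and 5), or -0.25 on the log2 scale (SE 0.086; adjusted p = 0.0267 by edgeR).

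Junb, a JUN paralog with weaker activating capacity (chromosome 8, 84974484 to 84978718, minus strand), ranged from 1572 to 2061 CPM in Control and from 1318 to 1705 CPM in the knockout. The log2 fold change of Junb was -0.26 (SE 0.091; edgeR, adjusted p = 0.0301). Jund (chromosome 8, 70698949 to 70700616, plus strand) ranged from 1431 to 2096 CPM and from 1123 to 1565 CPM. Its log2 fold change was -0.39 (SE 0.11; edgeR, adjusted p = 0.0110), the largest of the 3. In GENCODE, opposite-strand exons of Prdx2 overlap Junb by 173 bases, those of Junos overlap Jun by 232 and those of Gm11175 overlap Jund by 877. Prdx2 itself did not pass (log2 0.04, adjusted p = 0.605 by edgeR).

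The calls for Jun and Junb were narrow. Scaling by library size alone took the call of Jun away (log2 fold change -0.15; adjusted p = 0.156 by edgeR), as did other settings: it was not called with upper-quartile scaling (-0.20; adjusted p = 0.0765), with a Y-linked covariate (-0.25; 0.0541) or with the mean of mesenchymal markers as a covariate (-0.24; 0.223). Over its alternatives the adjusted p of Jun ran from 0.00354 to 0.223. It also lost its call without Control library 1 (-0.23; adjusted p = 0.0524) or 3 (-0.23; 0.0591), and without knockout library 1 (-0.23; 0.0738) or 3 (-0.23; 0.0766). Junb lost its call with the same scalings and covariates, without the same libraries, and without knockout library 5 (-0.24; edgeR, adjusted p = 0.0767). Over its alternatives the adjusted p of Junb ran from 0.00977 to 0.257. Jund kept its call under these scalings and in each exclusion of 1 library, and lost it with the mesenchymal covariate (-0.38; edgeR, adjusted p = 0.133). Every one of the 25 alternatives gave a negative log2 fold change for all 3 genes.

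Relative to each other the Jun genes gave no detectable difference between genotypes. The ratio of Jun to Junb counts was 2.80 in Control and 2.82 in the knockout (exact permutation p = 0.840, adjusted p = 0.840). Jun against Jund had a log2 difference of 0.14 (exact permutation p = 0.355, adjusted p = 0.484), with SDs of 0.25 and 0.19 among Control and knockout libraries. Junb against Jund had a log2 difference of 0.13 (exact permutation p = 0.193, adjusted p = 0.321), with SDs of 0.16 and 0.12. Summed CPM of the 4 Fos genes made up 0.257% to 0.316% of TMM-scaled counts in Control and 0.361% to 0.390% in the knockout. The 3 Jun genes made up 0.792% to 0.962% and 0.647% to 0.782% of TMM-scaled counts. These ranges depend on the TMM factors, and shares of raw counts were not compared.

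Egr1 (chromosome 18, 34859823 to 34864984, plus strand) was higher in the knockout. Control libraries held 2699.8, 2881, 2921, 2449, 2390.4 and 2866 CPM and knockout libraries 3514, 4356, 3505, 3645 and 3928 CPM, without overlap. The mean went from 2701 ± 232 to 3789 ± 360 CPM (SD, n = 6 and 5), or 0.49 on the log2 scale (SE 0.086; adjusted p = 0.000290 by edgeR). Its ratio to Fos, another target of the serum response factor, was 1.68 in Control and 1.72 in the knockout (log2 difference 0.031, SDs 0.083 and 0.10; exact permutation p = 0.597, adjusted p = 0.664).

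Atf3 (chromosome 1, 191170296 to 191218039, minus strand) had 2249, 2426, 2288, 2724, 1663 and 1593 CPM in Control and 2036, 2179, 2067, 2216 and 1787 CPM in the knockout. Control libraries 5 and 6 were the lowest of all 11, and Control libraries 1 to 4 the highest. The log2 fold change was -0.07 (SE 0.13; edgeR, adjusted p = 0.700), with a 95% interval of -0.36 to 0.22. Without Control libraries 5 and 6 it was -0.24 and passed (edgeR, adjusted p = 0.0226). Without Control library 4 it was 0.0086 (adjusted p = 0.962 by edgeR), and scaling by library size alone gave 0.047 (adjusted p = 0.746). Over its alternatives the adjusted p of Atf3 ran from 0.0226 to 0.966.

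Ier2 (chromosome 8, 84661331 to 84662852, minus strand) ranged from 1386 to 1695 CPM in Control and from 1292 to 1593 CPM in the knockout. Its log2 fold change was -0.11 (SE 0.080; edgeR, adjusted p = 0.298; 95% interval -0.29 to 0.073), and it was called under none of the 25 alternatives, whose values ran from -0.15 to -0.0036. Fos, Fosb, Fosl1, Fosl2 and Egr1 were called in 1 direction under all 25. Their ranges of log2 fold change were 0.43 to 0.56, 0.93 to 1.08, 0.99 to 1.35, -0.84 to -0.58 and 0.45 to 0.60.

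**Figure D3:**
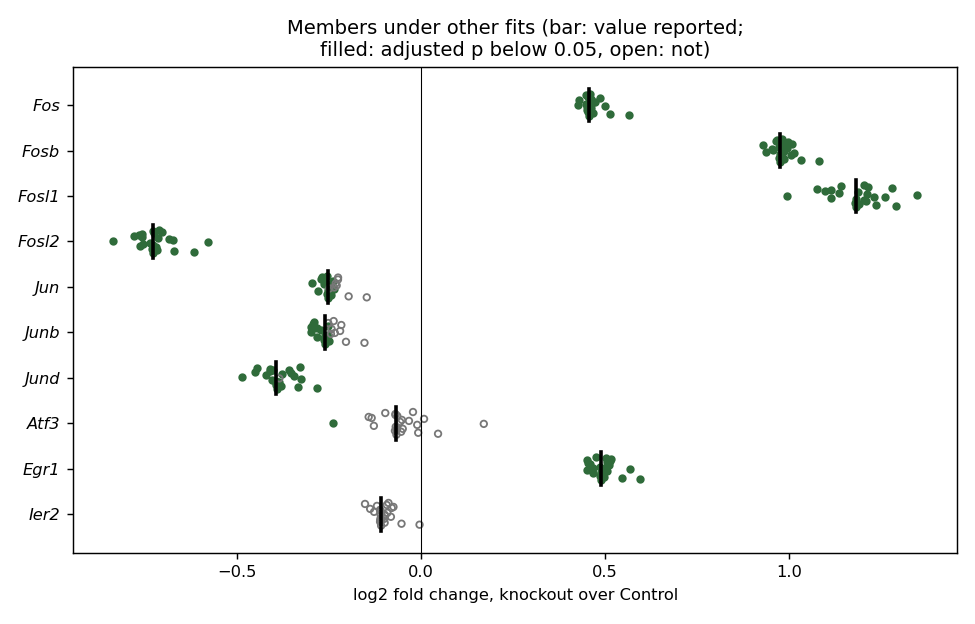
Log2 fold changes of the 10 genes in the fit reported (black bars) and under 24 other fits (points; filled where the adjusted p was below 0.05). Points for Fos, Fosb, Fosl1, Fosl2 and Egr1 are all filled, and those for Jun and Junb are mixed. Jund is open with the mesenchymal covariate. Atf3 crosses 0 and is filled without Control libraries 5 and 6.

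How far libraries of 1 genotype differed was examined next, since these genes can change within minutes. The coefficient of variation of CPM ran from 5.49% (Fos) to 32.4% (Fosl1) in Control and from 2.44% (Fosb) to 20.1% (Fosl1) in the knockout. It was smaller in the knockout for 7 of the 10 genes, a difference that was not tested. The share over all genes tested was not counted, so this is not shown to be particular to the 10 genes. Fosb went from 9.91% to 2.44%, Fosl2 from 15.3% to 6.04% and Atf3 from 20.5% to 8.19%.

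A second measure, edgeR's biological coefficient of variation, pools the genotypes and removes counting noise. It is also drawn towards a trend over genes of like abundance, so it is not the spread of these libraries alone. It was 8.63% for Fos, 9.47% for Fosb, 9.97% for Ier2, 10.3% for Jun and 10.50% for Egr1. Junb (11.1%), Fosl2 (12.03%), Jund (13.5%), Atf3 (15.3%) and Fosl1 (18.7%) varied more. The median was 9.23% over the 2495 genes at 100 CPM or more. Among these, Fos stood at the 39.3 percentile, Fosb at 54.6, Jun at 65.7 and Atf3 at 92.4.

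**Figure D4:**
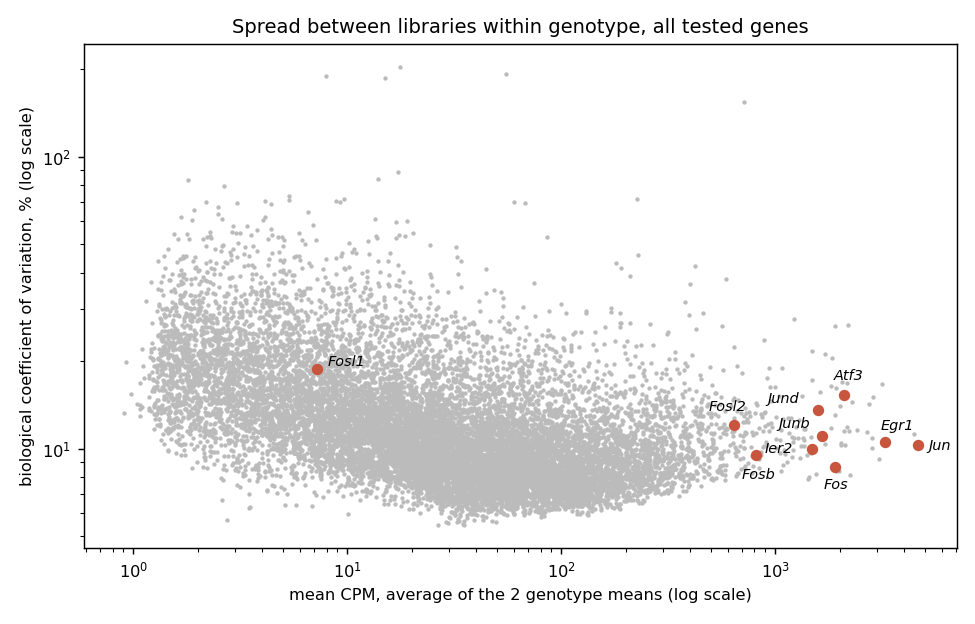
Biological coefficient of variation (percent, log axis) against mean CPM (log axis) for all 13916 genes tested (grey), with the 10 genes in red. Fos lies at 8.63% and Atf3 at 15.3%, both among the most abundant genes, and Fosl1 lies far to the left.

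Whether the genes varied together within a genotype was examined by correlation, and no pair passed. Log2 CPM, centred on the genotype means, correlated above 0 in 39 of 45 pairs over the 11 libraries, with a median r of 0.37. An exact permutation of libraries within genotype gave 10 pairs an unadjusted p below 0.05 for Pearson's r and 7 for Spearman's rho, and 0 pairs passed adjustment over the 45 by either measure. The closest pair was Junb and Ier2 (r = 0.84, exact permutation p = 0.00456, adjusted p = 0.176; rho = 0.82, exact permutation p = 0.0088, adjusted p = 0.198). Without the 2 libraries farthest from the median of Junb, r was 0.83. Jun and Junb followed (r = 0.77, exact permutation p = 0.00983, adjusted p = 0.176; rho = 0.85, exact permutation p = 0.00463, adjusted p = 0.198; r = 0.78 without the 2 farthest). Fos and Egr1 had r = 0.72 (exact permutation p = 0.0197, adjusted p = 0.176; rho = 0.78, exact permutation p = 0.0144, adjusted p = 0.215), and r = 0.55 without Control library 5 and knockout library 1. Without the same 2, r went from 0.68 to 0.27 for Fos and Fosb and from 0.66 to 0.20 for Fos and Junb. The remaining pairs with an unadjusted p below 0.05 were treated likewise, without the 2 libraries farthest for the first gene named. Their r went from 0.70 to 0.47 (Fosl1 and Fosl2), 0.68 to 0.44 (Jund and Atf3), 0.69 to 0.54 (Jund and Ier2), 0.70 to 0.61 (Junb and Jund) and 0.72 to 0.62 (Jun and Egr1).

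Among 10068 other genes at 10 CPM or more, the 5 whose centred log2 CPM followed Fos most closely over the 11 libraries were Zfp688 (r = 0.94), Ifih1 (0.85), Arrdc2 (0.84), Parp8 (0.83) and Sesn1 (0.83). They head a ranking of many genes over few libraries, so no p is given. By Spearman's rho Zfp688 (0.87) ranked 3. Ifih1 and Sesn1 had the same rho (0.86) and were listed at 4 and 6, an order that is arbitrary. Arrdc2 ranked 11 and Parp8 74. Without Control library 5 and knockout library 1, the libraries farthest from the median of Fos, r was 0.77, 0.71, 0.48, 0.42 and 0.83. None is a classical early gene, and the best of the other 9 members was Egr1 at 0.72.

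Other immediate early genes went both ways as well. Of 40 such genes, all tested, edgeR called 10 higher and 19 lower and left 11 uncalled, so that 72.5% were called against 42.9% of all genes (21.1% higher, 21.8% lower). The median log2 fold change was -0.20 against 0.0023 for all genes. The members named next by family were chosen after their values were seen, apart from Egr3, Egr4, Socs3, Cebpd, Cyr61 and Btg2. The remaining Egr genes rose with Egr1: Egr2 from 117 ± 11.2 to 201 ± 16.7 CPM (log2 fold change 0.78), Egr3 from 18.1 ± 2.397 to 62.0 ± 4.16 (1.78) and Egr4 from 1.90 ± 0.546 to 7.89 ± 0.835 (2.04; edgeR, adjusted p = 3.81e-07). The orphan receptor genes Nr4a1 (-0.35), Nr4a2 (-0.96) and Nr4a3 (-1.12) fell (edgeR, adjusted p = 0.00440, 1.23e-06 and 0.00154). The mRNA decay factor genes Zfp36 (-0.66), Zfp36l1 (-0.66) and Zfp36l2 (-0.44) fell as well (edgeR, adjusted p = 6.08e-05, 2.16e-06 and 0.00199). These directions held with all 4 scalings, and Nr4a1 and Nr4a3 were not called with the mesenchymal covariate (edgeR, adjusted p = 0.265 and 0.127).

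Among the early genes with the smallest p, the cytokine signalling inhibitor gene Socs3 went from 539 ± 20.3 to 249.5 ± 10.4 CPM, or -1.11 on the log2 scale (adjusted p = 1.14e-09 by edgeR). Cebpd, a bZIP factor of the acute phase response, fell too, from 217 ± 32.0 to 90.2 ± 11.7 CPM (log2 -1.26, adjusted p = 2.65e-07 by edgeR). Gem (-1.40) was the early gene with the lowest log2 fold change, and Klf6 (-0.63), Phlda1 (-0.81) and Rhob (-0.54) fell at high abundance, while Myc (0.68), Klf2 (0.69) and Dusp1 (0.42) rose. Cyr61, at 3195 ± 199 and 2946 ± 203 CPM, and Btg2, at 1807 ± 245 and 1819 ± 122 CPM, were abundant and not called (log2 fold changes -0.12 and 0.0096).

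**Figure D5:**
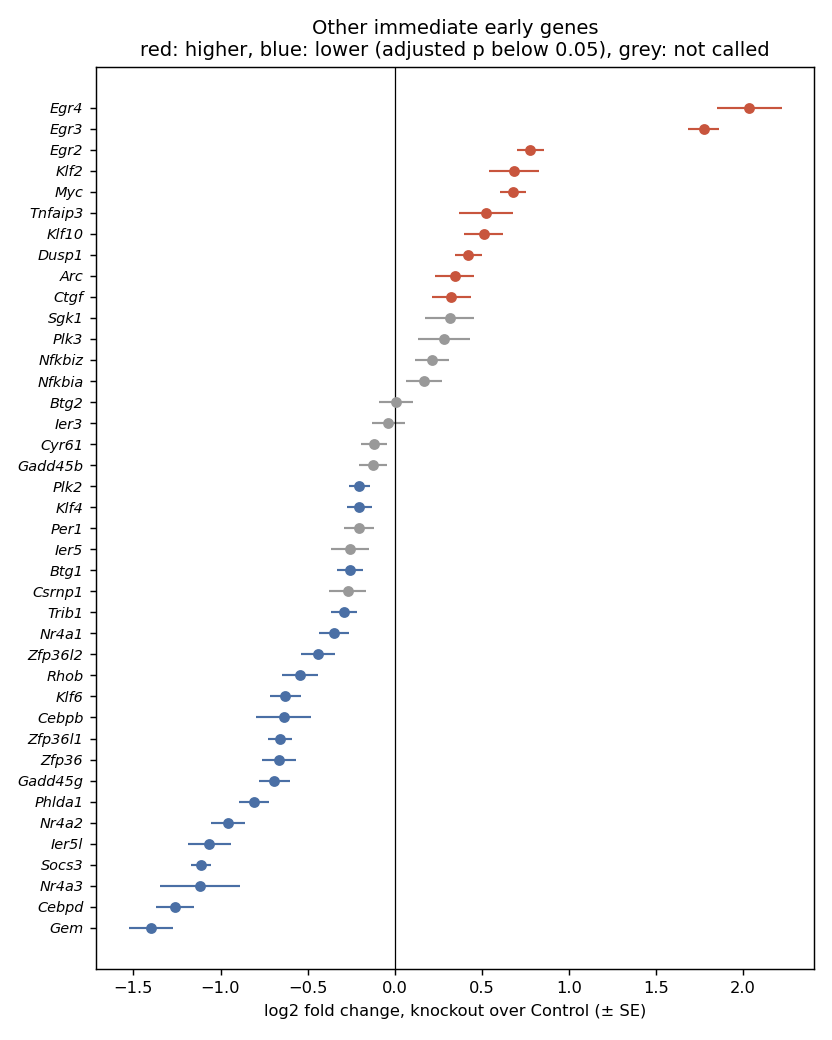
Log2 fold change, knockout over Control, with its SE for the 40 other immediate early genes, red where higher, blue where lower and grey where not called. The Egr genes lie at the top (0.78 to 2.04), while Gem, Cebpd and Nr4a3 lie at the bottom (-1.40 to -1.12).

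Chaperones of the heat shock response, another mark of cell stress, were mostly not called: by edgeR 3 of 16 rose, 3 fell and 10 did not pass (37.5% called, against 42.9% of all genes, median log2 fold change 0.06). Hspb1 (0.87) and Hsph1 (0.61) rose, and the co-chaperone genes Bag3 (-0.90) and Dnajb1 (-0.24) fell. The abundant Hsp90ab1 (0.07) and Hspb8 (-0.25) were not called, though Hsp90ab1 passed when scaled by library size alone (0.18; edgeR, adjusted p = 0.0417). With library-size scaling alone the list had 8 genes higher and 1 lower, and Dnajb1 was not called with that scaling (-0.14; edgeR, adjusted p = 0.154) or with the upper quartile (-0.19; 0.0639). Hspb8 was called lower without Control libraries 5 and 6 (-0.46; edgeR, adjusted p = 0.000265). Without knockout library 5 the list had 5 higher and 1 lower, and without Control library 2 it had 1 lower. Summed CPM of the list ran from 4417 to 5224 in Control and from 4288 to 4895 in the knockout.

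Partners and regulators of AP-1 were examined as lists. Of 22 further bZIP genes, 19 were tested, of which 3 rose and 7 fell by edgeR (52.6% called, against 42.9% of all genes; median log2 fold change -0.05). Nfe2l2, which encodes the oxidative stress factor NRF2, fell from 950 ± 129 to 413 ± 16.8 CPM (-1.20; edgeR, adjusted p = 6.51e-08). The cAMP-responsive repressor gene Crem (-0.88) and Bach2 (-0.42) fell, Maf (0.79) rose, and Mafk (-0.22) and Nfe2l1 (0.014) were not called. Without Control libraries 5 and 6, Mafk passed (-0.38; edgeR, adjusted p = 0.00121). Of 21 upstream kinase and factor genes, 5 rose and 5 fell (47.6% called, near the 42.9% of all genes; median -0.02). Mkl1 (0.62), a coactivator of serum response factor, rose, Rps6ka1 (-0.63) and Elk3 (-0.44) fell, and Srf itself (-0.21) was not called. Srf passed without Control libraries 5 and 6 (-0.34; edgeR, adjusted p = 0.00111).

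Inhibitors that MAP kinase signalling induces rose in 6 of 15 cases and fell in 4 (edgeR; 66.7% called, against 42.9% of all genes; median log2 fold change 0.17). Dusp1, which rose, is counted both here and among the other immediate early genes. The ERK phosphatase genes Dusp5 (1.07) and Dusp6 (0.59) and the JNK and p38 phosphatase gene Dusp10 (1.099) rose, while the receptor signalling inhibitor gene Spry1 (-0.58) fell. Dusp16 (-0.23) and Dusp8 (-0.17) were not called, but passed without Control libraries 5 and 6 (-0.37 and -0.31; edgeR, adjusted p = 0.000216 and 0.00343). Among 23 textbook AP-1 targets 18 were tested, of which 5 rose and 7 fell (66.7% called, against 42.9% of all genes; median -0.05). The urokinase receptor gene Plaur rose from 21.6 ± 6.43 to 73.7 ± 6.43 CPM (1.78) and the cornified envelope gene Sprr1a rose (1.26). The EGF receptor ligand gene Areg fell from 108 ± 25.8 to 24.5 ± 2.01 CPM (-2.14), and the envelope gene Lor fell (-2.44). Hbegf (0.04) and the cyclin D1 gene Ccnd1 (0.17) were not called, and Ccnd1 passed without Control libraries 5 and 6 (0.28; edgeR, adjusted p = 0.00223) and with library-size scaling alone (0.27; 0.0454).

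Libraries held 6065906 to 7869787 counts, and no pair within a group was alike to within sampling noise. Epcam stood at 252 ± 25.3 and 261 ± 10.8 CPM in Control and knockout. Of 8 epithelial markers, Epcam included, none was called higher and 4 were lower by edgeR: Cldn3 (-0.78), Cldn7 (-0.37), Nkx2-1 (-0.28) and Cdh1 (-0.18, log2 fold changes). Their summed CPM ran from 6982 to 8180 in Control and from 6367 to 7007 in the knockout. Over all genes tested, edgeR called 21.1% higher, 21.8% lower and 42.9% in all, for comparison with these markers and the lists that follow. Over whole genes, Prdm16 had 202 ± 21.9 and 166 ± 12.2 CPM and Mecom 219 ± 9.99 and 340 ± 16.0 CPM, and transcripts lacking the deleted part would still be counted. Marker lists of other cells, and of the neuroendocrine epithelial cells, are given by their summed CPM. Mesothelial markers (6 of 6 higher) had 155 to 296 in Control and 449 to 566 in the knockout, mesenchymal markers (5 of 8) 242 to 405 and 377 to 695, immune markers (5 of 8) 16.3 to 41.2 and 55.8 to 105, and neuroendocrine markers (6 of 6) 24.7 to 50.6 and 532 to 661. Endothelial markers had 4 of 7 higher and 1 lower, at 89.5 to 162 and 114 to 147, and 4 of 7 erythroid markers (Hba-a1, Hba-a2, Hbb-bs and Hbb-bt) were listed at 0. Immune markers called higher were 3 without Control library 4 or 6 or without knockout library 2, and endothelial markers called higher were 2 without Control library 2 or without knockout library 2, 3 or 4. S100a9, a neutrophil gene of the immune list, went from 1.29 ± 0.960 to 19.2 ± 4.23 CPM. Fewer cells of a type and less RNA per cell cannot be told apart in bulk RNA. With the mesenchymal markers as a covariate, Fos, Fosb, Fosl1, Fosl2 and Egr1 kept their calls (edgeR, adjusted p = 0.00307, 2.61e-05, 0.00851, 0.00976 and 0.00501) and the 3 Jun genes did not (0.223, 0.257 and 0.133 for Jun, Junb and Jund). The log2 fold changes of Jun, Junb and Jund were then -0.24, -0.23 and -0.38, against -0.25, -0.26 and -0.39 without the covariate, and the genes called over the whole table went from 5973 to 3299. The part of the other marker groups in these results was not tested.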

How the data were processed

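Poly(A) RNA of EpCAM-selected lung cells was sequenced in 11 libraries. The authors deposited 1 table of raw counts per gene symbol. Per the submitters' processing notes, HTSeq 2.0 and DESeq2 were used beside the aligner Bowtie2 2.4.2, the trimmer Trim Galore 0.4.2, Picard 2.18.22, SAMtools 1.10.0 and FastQC, on mm10, with settings unstated. Annotation, strand setting and treatment of duplicates: not given in the sources used here. Spreadsheet dates replaced 27 symbols, and 2 symbols were repeated, and such rows were kept for library totals. Totals of 6065906 to 7869787 counts limit precision for rare transcripts such as Fosl1.

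Low counts were removed with edgeR's filterByExpr, libraries scaled by TMM, and genotypes compared with edgeR 4.0.16 (R 4.3.3), robust two-sided quasi-likelihood F-test, Benjamini-Hochberg adjustment over 13916 genes, threshold 0.05. The standard error is the unshrunk coefficient over the square root of F, and 95% intervals use 9 degrees of freedom. Ratios and correlations of members used exact permutations. Annotation was GENCODE M21 (mm10), and promoters came from RefSeq. Pairs of libraries within a group differed by a chi-square of 3.12 to 26.6 per degree of freedom. The steps were tested on simulated data.

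Alternatives changed the scaling (size factors of DESeq2, upper quartile, or library size alone), the filter (none, or 1 CPM in 5 libraries), the tool (DESeq2 1.42.0, or limma-voom 3.58.1 unweighted or weighted by library) and the moderation (not robust). Others added a block for the replicate number, a Y-linked covariate or a mesenchymal one, left out each library in turn or Control libraries 5 and 6 together (which stand apart in proliferation genes), or set the threshold to 0.01. Leaving libraries out of the ratios was added after seeing the data. The members, lists and alternatives were chosen with earlier results of these data known. Genes were named by rule: all members, and from each list up to 4 called genes by adjusted p and 2 of the most abundant not called, of which some are not reported here; Prdm16, Mecom and Epcam; and the 5 genes most like Fos. Ccdc85b and Prdx2 were named for their overlap, and Egr2, the Nr4a and Zfp36 genes, Gem, Klf2, Klf6, Phlda1, Rhob, Myc, Dusp1 and S100a9 after their values were seen.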

Additional observations from a re-analysis of the deposited data

Results flagged for a closer look

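Of 208 groups of values examined (genes named in the text or by the rule for naming, each in both genotypes), 11 held a library far from its neighbours by Dixon's ratio, where chance flags about 1 in 20 groups. None of the 20 groups of the AP-1 and early genes themselves was among them. In Control, library 4 stood high for Rps6ka1 (84.9 CPM, next 66.5), Dusp10 (17.0, next 12.7), Sprr1a (58.4, next 38.7) and Cd68 (14.7, next 10.5). Control library 1 was high for Hspb1 (27.2 CPM, next 20.5), Control library 3 low for Lor (11.03, next 19.8) and Control library 2 low for Postn (0.553, next 2.08). In the knockout, library 5 was low for Egr4 (6.41 CPM, next 8.11) and Dnajb1 (388, next 473), library 2 high for Hbb-y (8.28, next 2.92), and library 4 high for Ccdc85b, which overlaps Fosl1 (40.5 CPM, next 28.9).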

How the results depend on the processing

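The count of members called was 8, 4 higher and 4 lower. It was 5 with the mesenchymal covariate and 5 at a threshold of 0.01, in each case with 1 lower. With library-size scaling alone, upper-quartile factors or the Y-linked covariate 2 were lower. Leaving out 1 library gave 2 to 4 lower, and 4 were higher in every setting run. Over all genes 5973 were called, 2936 higher and 3037 lower, and 3299, 1649 and 1650 with the mesenchymal covariate. With library-size scaling alone the share of calls that were higher was 65.6% against 49.2%, and the median over all genes moved from 0.0023 to 0.11 (log2). The log2 fold change of Atf3 was 0.047 with library-size scaling alone, positive also with the mesenchymal covariate (0.17) and without Control library 4, and -0.14 to 0.0086 over the exclusions of 1 library. Leaving out 1 library moved the log2 ratio of Jun to Junb from -0.017 to 0.042 and that of Egr1 to Fos from -0.00058 to 0.060. With the replicate number as a block 8 members were called, and 6197 genes. Deviations of same-numbered libraries correlated at -0.064 to 0.26 and 1 of 5 Control libraries correlated best with its own number, so the numbers were not taken as pairs. Without a filter, or with other tools, 8 members were called. Fosl1 rests on few counts, which limits its precision.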
